A study of Mus musculus with 8 samples.

Results

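The genes described here are 9 surface and matrix markers of trophocytes and adventitial fibroblasts, Cd81, Cd34, Pi16, Dpp4, Ly6a, Ly6c1, Clec3b, Thy1 and Dpt, chosen by name from the 53801 genes counted; all 9 were among the 15945 genes with enough counts to test. They were measured by RNA sequencing in stromal cells that were sorted out of ulcers in the small intestine of LTβRYFP mice. All mice had received indomethacin, a blocker of cyclooxygenases that causes ulcers of the gut. Cells with YFP gave 4 libraries and cells without it another 4, numbered 1 to 4 in each fraction, and both fractions were gated as negative for CD45, carried by leukocytes, and for CD31, carried by endothelium. The sources used here do not give strain, age, sex or what drives the YFP reporter, and no untreated group was analysed here.

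Total counts ranged from 14564835 to 29385718 in YFP-positive and from 12481608 to 28931436 in YFP-negative libraries, so that 1 CPM (count scaled to library size, in parts per 1e6) corresponded to 11.7 counts in the smallest library. Both libraries of replicate number 2 stood apart on the first principal component, at 78.7 and 92.5 against -46.2 to -12.4 for the others. Libraries of equal number deviated together from their group means, with correlations of 0.233 to 0.487, so they were treated as pairs. A fibroblast marker was high in both fractions: Pdgfra, the PDGF receptor carried by intestinal fibroblasts, averaged 1669.8 ± 312 CPM in YFP-positive and 1668 ± 266 CPM in YFP-negative cells (SD, n = 4 each, as in all mean values that follow). Ptprc, which encodes CD45, averaged 5.52 ± 4.68 CPM in YFP-positive and 2.60 ± 1.57 CPM in YFP-negative cells. Pecam1, which encodes CD31, averaged 28.6 ± 14.6 CPM in YFP-positive and 25.9 ± 16.3 CPM in YFP-negative cells, so RNA of the marker used to exclude endothelium was present in both.

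Intestinal fibroblasts differ by their depth in the gut wall. Subepithelial fibroblasts with high PDGFRA lie beneath the epithelium and secrete bone morphogenetic proteins, whereas trophocytes, deeper fibroblasts with low PDGFRA and surface CD81, supply the stem cell niche with the BMP antagonist gremlin and with R-spondins. Adventitial fibroblasts around larger vessels carry CD34 and SCA-1, the product of Ly6a, and a subset with Pi16, Dpp4, Ly6c1 and Dpt is found in many mouse tissues. The markers are shared with other cells: CD34, SCA-1 and LY6C also mark endothelium, THY1 marks T cells and neurons, and DPP4 is a brush border enzyme of the epithelium.

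Cd81, Cd34, Dpt and Clec3b fell in YFP-positive cells when the replicate number entered the fit as a block, and none of the 9 genes rose. With that block, edgeR's quasi-likelihood test called 4 of the 9 lower and 0 higher at an adjusted p of 0.05 or below, where 1.59% of all tested genes were called lower and 0.696% higher. The fit without the block called 0 of the 9 and 0% of all genes in either direction (adjusted p = 0.99985 for each member, edgeR), although Cd81 and Pi16 were among the 156 higher and 169 lower genes at an unadjusted p of 0.05, and DESeq2 without the block called 2 genes lower and 0 higher. Every "fell" below therefore refers to the blocked fit. In 6 of the 9 genes the YFP-positive library was the lower one in 4 of 4 pairs, where 10.2% of all genes did so, and 0 were the higher one in 4 of 4, where 8.86% of all genes were. The median log2 fold change of the 9 was -0.38 with the block and -0.44 without it, beside a median of 0.0048 and 0.0045 over all tested genes. The authors' deposited table, whose fold changes and p-values a DESeq2 fit with the replicate number as a term returned, gave an adjusted p of 0.05 or below to 5 of the 9, all lower (2.07% of its genes were lower and 0.939% higher by that rule), adding Pi16. With library sizes alone in place of TMM scaling, edgeR with the block called 153 genes lower and 212 higher, against 253 lower and 111 higher with TMM, and 3 members lower and 0 higher. Left out in turn, replicates 1, 2, 3 and 4 left 4, 3, 3 and 3 members called by edgeR with the block. In bulk RNA, fewer cells of a type and less RNA per cell cannot be told apart.

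**Figure D1:**
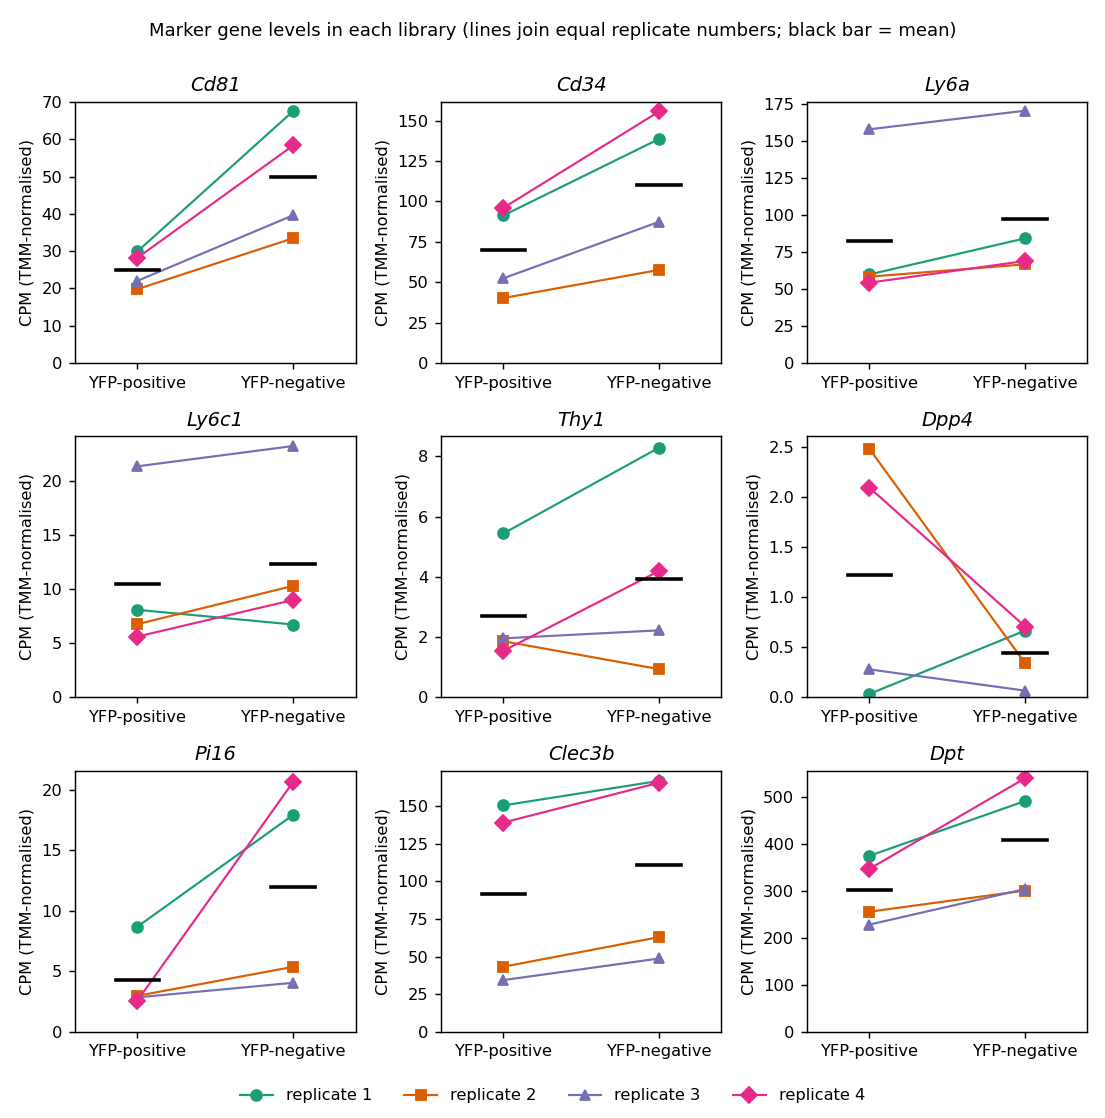
Level of each marker gene in CPM (vertical axis, from 0) in the 4 YFP-positive and 4 YFP-negative libraries; lines join equal replicate numbers and black bars are group means. The 4 lines of Cd81, Cd34, Ly6a, Pi16, Clec3b and Dpt all run lower on the YFP-positive side, and only in Cd81 do the groups not overlap.

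The stretches upstream of the transcription start are shown for Cd81, Cd34 and Dpt, the genes that fell in each of the 12 other blocked settings tried; they are the 250 bases before the start, on the plus strand, from RefSeq on GRCm38.p6, at chr7:143052500-143052749, chr1:194938571-194938820 and chr1:164796413-164796662. Capitals mark matches to the GC box GGGCGG. Promoter sequences were at hand for 6 of the 9 genes.
Cd81: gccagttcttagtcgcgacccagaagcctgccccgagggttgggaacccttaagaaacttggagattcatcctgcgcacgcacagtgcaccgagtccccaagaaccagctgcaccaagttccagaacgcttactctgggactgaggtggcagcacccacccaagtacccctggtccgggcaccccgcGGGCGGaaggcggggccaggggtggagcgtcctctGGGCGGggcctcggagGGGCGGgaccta
Cd34: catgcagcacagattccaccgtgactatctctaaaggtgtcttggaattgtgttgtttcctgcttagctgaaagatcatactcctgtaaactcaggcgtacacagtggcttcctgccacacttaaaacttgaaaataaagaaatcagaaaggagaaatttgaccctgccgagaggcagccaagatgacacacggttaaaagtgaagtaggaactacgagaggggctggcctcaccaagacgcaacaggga
Dpt: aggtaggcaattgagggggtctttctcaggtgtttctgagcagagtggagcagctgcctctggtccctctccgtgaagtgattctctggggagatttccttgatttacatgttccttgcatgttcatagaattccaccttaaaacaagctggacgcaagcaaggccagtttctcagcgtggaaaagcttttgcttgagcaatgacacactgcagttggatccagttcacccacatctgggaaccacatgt
Both strands were searched for the TATA box letters TATAAA, for the CCAAT box, for GGGCGG, for TGANTCA, the letters of an AP-1 site, and for the kB motif of NF-kB, and no motif contains another. Cd81 held 3 matches to GGGCGG, at 63 to 58, 28 to 23 and 12 to 7 bases before the RefSeq start, and no match to the other 4. Cd34 and Dpt held no match to any of the 5. The GENCODE M21 starts of Cd81, Cd34 and Dpt, at 143052739, 194938819 and 164796644, lie inside these windows. By that annotation the windows run into the transcripts, and the third match in Cd81 lies across the start. Of 32851 RefSeq windows of the same length, 32.7% held GGGCGG, 12.4% TATAAA, 33.9% CCAAT, 6.75% TGANTCA and 7.25% the kB motif. The GC content of the windows was 65.6% for Cd81, 46.4% for Cd34 and 48.8% for Dpt. None of these 5 motifs was found in all 3 windows. That says little, since each motif is held by at most 33.9% of the RefSeq windows. Clec3b, which also fell, had no promoter sequence at hand.

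Cd81 (ENSMUSG00000037706, GRCm38 chromosome 7, 143052739 to 143067934, plus strand) encodes a tetraspanin, a protein with 4 membrane spans that gathers partner proteins into membrane domains, and is the surface protein by which trophocytes are sorted. Its level was 29.9, 19.8, 22.0 and 28.2 CPM in YFP-positive replicates 1 to 4, against 67.6, 33.5, 39.7 and 58.4 CPM in YFP-negative replicates 1 to 4. Every YFP-positive library lay below every YFP-negative library, which held for 1 of the 9 genes and for 0.859% of all tested genes; the opposite held for 0 of the 9 and for 0.69% of all. The mean was 25 ± 4.84 CPM in YFP-positive and 49.8 ± 15.9 CPM in YFP-negative cells. Cd81 fell, by log2 -0.96 ± 0.11 in the fit (SE; edgeR with the block, adjusted p = 2.0e-04), which is a 0.513-fold level with a 95% interval of 0.435 to 0.605. The within-pair log2 ratios were -1.17, -0.75, -0.84 and -1.05 in pairs 1 to 4, and by p-value Cd81 stood at place 21 of the 15945 genes. An overlapping gene on the opposite strand, R74862, held 55 counts in YFP-positive and 63 in YFP-negative libraries, against 2420 and 3938 counts of Cd81, so few counts went to it beside those of Cd81. Since how strand was handled in counting is not stated, reads of a gene and of its opposite-strand partner cannot be told apart where they overlap, here and below.

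None of the other tetraspanins was called. Of 22 tested with Cd81 left out, 0 rose and 0 fell, and the median of the log2 fold changes was 0.08 with the block. Over all tested genes, 1.59% fell and 0.696% rose. At these shares, 0 calls in a list this short say little about its genes, here and in the short lists below. Cd9, a close relative of Cd81 that shares many of its partners, averaged 50.8 ± 3.68 CPM in YFP-positive and 48.4 ± 12.1 CPM in YFP-negative cells (adjusted p = 0.871, edgeR with the block). Cd63, a tetraspanin of late endosomes, averaged 301.6 ± 30.5 CPM in YFP-positive and 300.2 ± 23.95 CPM in YFP-negative cells. Cd82 averaged 76.2 ± 16.4 CPM in YFP-positive and 59.7 ± 13.3 CPM in YFP-negative cells and was higher in 4 of 4 pairs without being called (adjusted p = 0.0661, edgeR with the block). Among 7 tested genes for known CD81 partners, 0 rose and 0 fell. They include Ptgfrn and Igsf8, immunoglobulin superfamily proteins that bind CD81 directly, at 321 ± 46.1 and 41.7 ± 2.29 CPM in YFP-positive and 331 ± 48.7 and 46.6 ± 3.97 CPM in YFP-negative cells. Whether Cd81 differed from the other tetraspanins in its change was not tested.

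Cd34 (ENSMUSG00000016494, chromosome 1, 194938819 to 194961279, plus strand) encodes a sialomucin, a heavily glycosylated surface protein found on adventitial fibroblasts, blood progenitors and endothelium. It stood at 91.3, 40.2, 52.4 and 96.0 CPM in YFP-positive replicates 1 to 4, against 138.6, 57.6, 87.4 and 155.6 CPM in YFP-negative replicates 1 to 4. The groups overlapped, and replicates 1 and 4 were high and replicates 2 and 3 low in both fractions. Within pairs the ratios were close together, at -0.60, -0.52, -0.74 and -0.70 on the log2 scale. Cd34 averaged 70.0 ± 27.8 CPM in YFP-positive and 109.8 ± 45.3 CPM in YFP-negative cells, and fell, the fitted log2 fold change being -0.64 ± 0.08 (SE; edgeR with the block, adjusted p = 2.5e-04), a 0.641-fold level with a 95% interval of 0.572 to 0.717. The opposite-strand gene Gm16897 held 151 counts in YFP-positive and 159 in YFP-negative libraries beside 6966 and 8834 of Cd34. Of the related sialomucins, Podxl, which encodes podocalyxin of vascular endothelium and kidney podocytes, rose at a low level, to 5.19 ± 3.97 CPM in YFP-positive against 1.57 ± 1.43 CPM in YFP-negative cells (log2 fold change 1.83, adjusted p = 0.0348, edgeR with the block). Summed over 12 endothelial markers, 0 of them at 0 counts throughout, levels ran from 52.0 to 262 CPM in YFP-positive and from 65.5 to 146 CPM in YFP-negative libraries and were higher in 2 of 4 pairs. Of the 10 tested, 0 rose and 0 fell, and the median of the log2 fold changes was 0.60 with the block. In 4 of 4 pairs 2 of them were higher and 0 lower. Cd34 was lower in 4 of 4 pairs. The part of endothelial RNA in the changes of Cd34 and Podxl was not tested.

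The genes for secreted matrix proteins came next in evidence. Dpt (ENSMUSG00000026574, chromosome 1, 164796644 to 164824266, plus strand) encodes dermatopontin, which binds decorin and helps assemble collagen fibrils. Dpt stood at 375, 256, 229 and 347 CPM in YFP-positive replicates 1 to 4, against 492, 301.2, 304 and 541 CPM in YFP-negative replicates 1 to 4. Again replicates 1 and 4 were the higher ones in both fractions, and the groups overlapped. The mean was 302 ± 70.5 CPM in YFP-positive and 409.6 ± 125 CPM in YFP-negative cells. Dpt fell, the fitted log2 fold change being -0.42 ± 0.07 (SE; edgeR with the block, adjusted p = 0.00384), a 0.747-fold level with a 95% interval of 0.674 to 0.829. Its opposite-strand neighbour Gm32569 held 152 counts in YFP-positive and 292 in YFP-negative libraries, beside 29091 and 32093 of Dpt.

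Of 10 genes for proteins that dermatopontin binds or lies beside, 6 fell and 0 rose, and the median of the log2 fold changes was -0.32. They are genes for matrix proteins apart from Tgfb1, which encodes a growth factor and was not called. Over all tested genes, 1.59% fell and 0.696% rose. Fn1, which encodes fibronectin, was higher in 4 of 4 pairs without being called (log2 fold change 0.20, adjusted p = 0.125, edgeR with the block). Lum, Tnxb and Dcn, which encode lumican, tenascin X and decorin, had the lowest adjusted p among the 10 (7.8e-05, 0.00126 and 0.0020, edgeR with the block). Dcn averaged 4546 ± 776 CPM in YFP-positive and 6083 ± 1026 CPM in YFP-negative cells, and Tnxb averaged 532 ± 187 CPM in YFP-positive and 763 ± 289 CPM in YFP-negative cells.

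Clec3b (ENSMUSG00000025784, chromosome 9, 123150946 to 123157432, plus strand) encodes tetranectin, a secreted C-type lectin that binds plasminogen. Its level was 150.5, 43.2, 34.4 and 139 CPM in YFP-positive replicates 1 to 4, against 166.8, 63.0, 48.7 and 165.6 CPM in YFP-negative replicates 1 to 4. The groups overlapped, and replicates 1 and 4 were high in both fractions: the mean of both libraries was 3.82-fold higher in replicate 1 than in replicate 3. Clec3b averaged 91.8 ± 61.5 CPM in YFP-positive and 111 ± 64.0 CPM in YFP-negative cells and was lower in 4 of 4 pairs, with ratios of -0.15, -0.54, -0.50 and -0.25. It fell, the fitted log2 fold change being -0.35 ± 0.08 (SE; edgeR with the block, adjusted p = 0.0355), a 0.783-fold level with a 95% interval of 0.693 to 0.885. With 3 pairs left, the log2 fold change was -0.30, -0.31 and -0.39 without replicate 2, 3 or 4, and Clec3b was no longer called (adjusted p = 0.0990, 0.220 and 0.0865, edgeR with the block). With library sizes alone it was -0.27 (adjusted p = 0.151, edgeR with the block).

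Pi16 (ENSMUSG00000024011, chromosome 17, 29317680 to 29330593, plus strand) encodes peptidase inhibitor 16, a CAP-domain protein that marks adventitial fibroblasts in many mouse tissues. It was a low gene, at 8.68, 2.97, 2.84 and 2.57 CPM in YFP-positive replicates 1 to 4, against 17.9, 5.37, 4.05 and 20.6 CPM in YFP-negative replicates 1 to 4. The YFP-positive library was lower in 4 of 4 pairs, but by unequal amounts, with log2 ratios of -1.04, -0.83, -0.50 and -2.96, and the groups overlapped. Its log2 fold change of -1.34 ± 0.37 (SE) was the most negative of the 9 and was not called (adjusted p = 0.104, edgeR with the block; 95% interval of the level 0.226- to 0.687-fold). In the authors' deposited table Pi16 had a log2 fold change of -1.34 and an adjusted p of 0.0138, and of the 12 other blocked settings 4 called it, with log2 fold changes of -1.64 to -0.81 and adjusted p of 1.1e-04 to 0.389 over the 12. The opposite-strand gene AC162182.1, which overlaps Pi16, had no entry among the counted genes. Of 3 tested genes for other CAP-domain proteins, 0 rose and 0 fell.

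**Figure D2:**
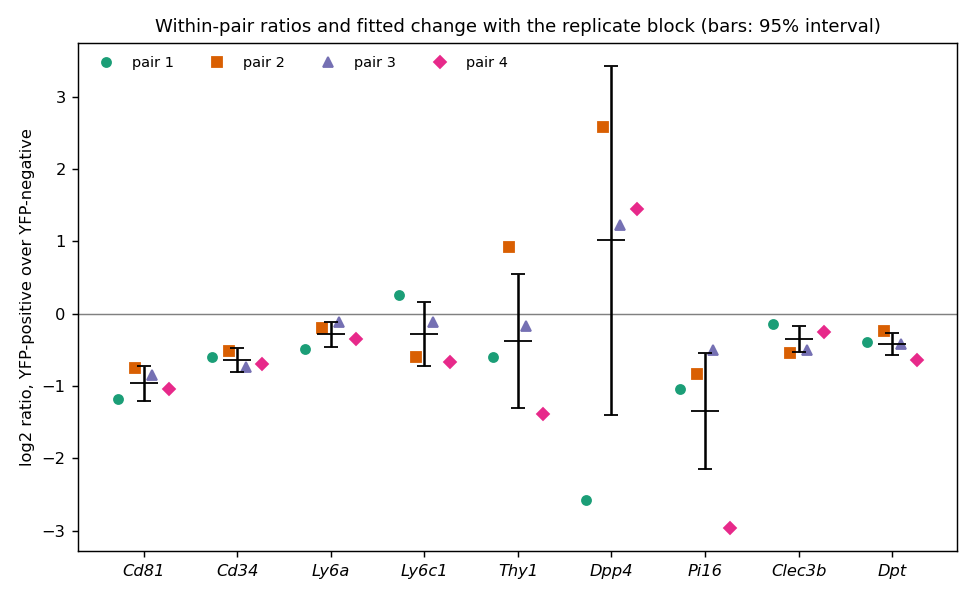
Log2 ratio of the YFP-positive over the YFP-negative library in each pair of equal replicate number (coloured points, vertical axis) and the fitted log2 fold change with the replicate block and its 95% interval (black) for each marker gene. Cd81 and Cd34 have 4 closely spaced ratios, whereas Pi16 spans -2.96 to -0.50 and Dpp4 -2.58 to 2.57.

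Ly6a and Ly6c1 stand in a cluster of Ly6 genes on chromosome 15 (Ly6a at 74994877 to 74998031 and Ly6c1 at 75044018 to 75048830, both minus strand) and encode small proteins held on the membrane by a GPI anchor. Ly6a, or SCA-1, is a stem cell and adventitial marker that interferon induces in mouse cells, and Ly6c1 marks endothelium and Pi16-positive fibroblasts. Ly6a stood at 59.7, 58.2, 157.6 and 54.2 CPM in YFP-positive replicates 1 to 4, against 84.1, 66.5, 170.2 and 68.8 CPM in YFP-negative replicates 1 to 4. Both libraries of replicate 3 were above all others, and the YFP-positive one was lower in 4 of 4 pairs. The log2 fold change was -0.29 ± 0.08 (SE), and Ly6a was not called (adjusted p = 0.103, edgeR with the block; 95% interval of the level 0.727- to 0.926-fold). Ly6c1 was at 8.09, 6.77, 21.4 and 5.62 CPM in YFP-positive replicates 1 to 4, against 6.73, 10.3, 23.2 and 9.01 CPM in YFP-negative replicates 1 to 4. It was lower in 3 of 4 pairs, highest in replicate 3 in both fractions, and not called (log2 fold change -0.28 ± 0.21, SE; adjusted p = 0.734, edgeR with the block).

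These near copies limit how the reads of the cluster can be assigned. The coding sequences of Ly6c1 and its neighbour Ly6c2, which is best known from monocytes, are both 393 bases long and differ at 9 of them, with an identical run of 188 bases. Coding bases 6 to 65, where 6 of the 9 differences lie, are shown because reads over them can tell the genes apart; the sequences are from GENCODE M21 transcripts, minus strand of GRCm38, at chr15:75048447-75048506 for Ly6c1 and chr15:75111603-75111662 for Ly6c2, and capitals mark the bases that differ.
Ly6c1: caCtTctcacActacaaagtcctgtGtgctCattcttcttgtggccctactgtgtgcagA
Ly6c2: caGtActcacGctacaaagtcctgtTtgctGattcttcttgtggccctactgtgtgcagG
Of the 50-base windows of its annotated transcripts, Ly6c1 shared 21.5% with Ly6c2 and 32.8% with any other gene, and Ly6a shared 19.0% with other genes, most of them windows of Ly6c1. Ly6c2 held 1 count in the YFP-positive and 1 in the YFP-negative libraries, and shared 31.2% of its own windows. Ly6c1 held 1009 counts in YFP-positive and 1109 in YFP-negative libraries. The sources used here do not say how reads that fit several genes were counted, so the levels of Ly6c1 and Ly6a are uncertain to that extent. Of 7 other tested genes of the Ly6 family, 0 rose and 0 fell, and the most abundant, Ly6e, averaged 239.5 ± 70.4 CPM in YFP-positive and 248 ± 72.8 CPM in YFP-negative cells.

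Thy1 and Dpp4 were low in all libraries. Thy1 (ENSMUSG00000032011, chromosome 9, 44043384 to 44048579, plus strand) encodes a GPI-anchored immunoglobulin-like protein, CD90, widely used to sort fibroblasts. It was at 5.44, 1.86, 1.96 and 1.54 CPM in YFP-positive replicates 1 to 4, against 8.29, 0.937, 2.23 and 4.2 CPM in YFP-negative replicates 1 to 4. It was lower in 3 of 4 pairs and not called (log2 fold change -0.38 ± 0.43, SE; adjusted p = 0.866, edgeR with the block), and the 95% interval of the level, 0.407- to 1.46-fold, covers changes in either direction. Replicate 1 was the highest in both fractions, and the log2 fold change was -0.012 without replicate 4 and -0.74 without replicate 2. The 10 T and innate lymphoid genes summed to 393 to 484 CPM in YFP-positive and 416 to 530 CPM in YFP-negative libraries. Most of this was Rora, and the sum was higher in 2 of 4 pairs. Among them Cd3e held 22 counts in YFP-positive and 0 in YFP-negative libraries and was not tested, whereas Il7r held 106 and 271. The 8 enteric neuron genes, 1 of them at 0 counts throughout, summed to 1.19 to 4.42 CPM in YFP-positive and 2.39 to 6.32 CPM in YFP-negative libraries. Their sum was lower in 3 of 4 pairs. The part of these cells in the Thy1 values was not tested.

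Dpp4 (ENSMUSG00000035000, chromosome 2, 62330073 to 62412231, minus strand) encodes CD26, a surface peptidase that trims chemokines and incretins. Dpp4 counts were 1, 36, 7 and 53 in YFP-positive replicates 1 to 4, against 12, 4, 2 and 14 in YFP-negative replicates 1 to 4. These are levels of 0.0344, 2.49, 0.280 and 2.10 CPM in YFP-positive replicates 1 to 4, against 0.668, 0.341, 0.0674 and 0.708 CPM in YFP-negative replicates 1 to 4. An overlapping opposite-strand gene, Gm13561, held 21 counts in YFP-positive and 14 in YFP-negative libraries, beside 97 and 32 of Dpp4. Dpp4 was the one member with a positive log2 fold change, 1.02 ± 1.13 (SE; adjusted p = 0.862, edgeR with the block), it was higher in 3 of 4 pairs, and its 95% interval ran from a 0.380- to a 10.7-fold level. The log2 fold change was 0.25 without replicate 2 and 2.10 without replicate 1. The 13 epithelial markers, 0 of them at 0 counts throughout, summed to 20.9, 42.5, 13.4 and 183 CPM in YFP-positive replicates 1 to 4, against 40.6, 22.8, 19.3 and 39.4 CPM in YFP-negative replicates 1 to 4. The 2 libraries with the highest Dpp4 were also the 2 with the highest epithelial sum, but only narrowly for YFP-positive replicate 2. Its sum of 42.5 CPM was close to the 40.6 and 39.4 CPM of YFP-negative replicates 1 and 4. Dpp4 was at 2.49 CPM in the former and at 0.668 and 0.708 CPM in the latter. The part of epithelial RNA in the Dpp4 values was not tested. Fap, which encodes fibroblast activation protein, the closest relative of DPP4 and its neighbour on chromosome 2, fell, at 34.2 ± 11.1 CPM in YFP-positive and 52.4 ± 18.4 CPM in YFP-negative cells (log2 fold change -0.60, adjusted p = 0.00382, edgeR with the block). It was the only one called of 7 tested relatives of Dpp4.

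Compared per kilobase of annotated exon, the 9 genes spanned a wide range of levels. Dpt was the highest, at 175 ± 40.9 CPM per kilobase in YFP-positive and 238 ± 72.5 in YFP-negative cells, followed by Clec3b at 92.5 ± 62.0 and 112 ± 64.5 and Ly6a at 68.4 ± 41.7 and 80.8 ± 40.8 in the same order of groups. The ranges of Dpt and Clec3b overlapped in YFP-positive and not in YFP-negative cells, and those of Clec3b and Ly6a overlapped in both. A lower tier held Cd34 at 9.60 ± 3.82 and Cd81 at 8.68 ± 1.68 CPM per kilobase in YFP-positive cells, against 15.1 ± 6.22 and 17.3 ± 5.53 in YFP-negative cells, with Ly6c1 next at 6.24 ± 4.37 in YFP-positive and 7.35 ± 4.43 in YFP-negative cells. Neighbours within this tier overlapped, so their order, in which Cd34 led in YFP-positive and Cd81 in YFP-negative cells, is not larger than the spread. Thy1, Pi16 and Dpp4 were lowest, at 0.902 ± 0.613, 0.670 ± 0.463 and 0.194 ± 0.197 CPM per kilobase in YFP-positive cells, against 1.31 ± 1.07, 1.88 ± 1.34 and 0.0706 ± 0.0477 in YFP-negative cells.

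The markers differed in how much of their spread lay between the fractions and how much between the replicate numbers. Of the sum of squares of log2 CPM over the 8 libraries, 66.8% lay between YFP-positive and YFP-negative cells for Cd81, against a median of 4.35% over all tested genes. That share was 36.6% for Pi16, 27% for Dpt and 25.2% for Cd34. More of their spread lay between replicate numbers, at 44.4%, 69.9% and 74.4% in the same order, where the median of all genes was 72.4%. For Clec3b, Ly6a and Ly6c1 the share between the fractions was 3.99%, 5.51% and 3.93%, and 95.2%, 93.0% and 89.0% lay between replicate numbers. Thy1 had 2.72% between the fractions and 77.5% between replicate numbers. Dpp4 had 5.06% and 51.8%, with 43.1% in neither. The direction of the replicate differences was not shared: by the mean of both libraries, replicates 1 and 4 were the highest for Cd81, Cd34, Pi16, Clec3b and Dpt, and replicate 3 for Ly6a and Ly6c1, whose mean was 2.67- and 3.05-fold higher in replicate 3 than in replicate 4. The sources used here do not say whether a number stands for 1 mouse.

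**Figure D3:**
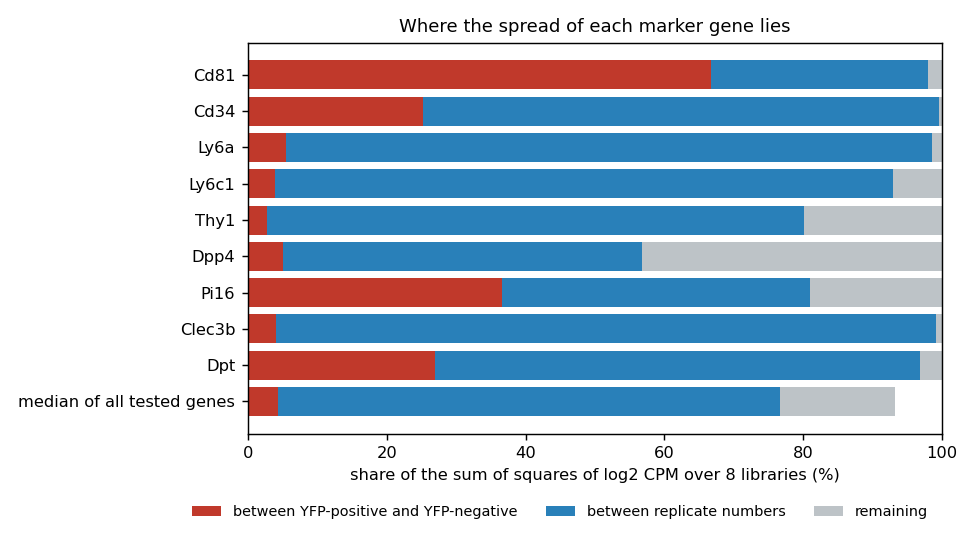
Share of the spread of log2 CPM over the 8 libraries (horizontal axis, in %) that lay between YFP-positive and YFP-negative cells (red), between replicate numbers (blue) or in neither (grey), for each marker gene. In Cd81 the red share is 66.8%; the bottom bar gives 3 separate medians over all tested genes, which need not add up to the whole.

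Other genes of the same fibroblasts, taken from a list of 18 secreted and further trophocyte and adventitial genes with no surface marker of the 9 in it, gave 12 that fell and 0 that rose, and the median of the log2 fold changes was -0.59 with the block. Over all tested genes, 1.59% fell and 0.696% rose. Ackr4, Fbln1 and C3 had the lowest adjusted p of the 18 (5.9e-05, 7.8e-05 and 8.0e-05, edgeR with the block), and these genes were already known to be lower in these libraries when the list was drawn up. Other genes of the list were not called. Gpx3, an extracellular glutathione peroxidase, averaged 1586 ± 593 CPM in YFP-positive and 1531 ± 549.8 CPM in YFP-negative cells, and Col15a1, a basement membrane collagen that marks a second widespread fibroblast state in mouse, averaged 293 ± 185 CPM in YFP-positive and 293 ± 163 CPM in YFP-negative cells (adjusted p = 0.910 and 0.861, edgeR with the block). Of 15 genes of a fibroblast signature found across mouse tissues, Col15a1 among them, 6 fell and 1 rose, and the median of the log2 fold changes was -0.20. The lists share genes: of those 6, Has1 and Igfbp6 are also in the list of 18, Fbn1 and Tnxb in the dermatopontin list and Cd248 in the list of surface proteins below, and Bmp7, which rose, is also a subepithelial gene. Gfpt2, an enzyme of hexosamine synthesis and the one of the 6 in no other list, averaged 259 ± 80.4 CPM in YFP-positive and 447 ± 140 CPM in YFP-negative cells and had the lowest adjusted p of that list (7.8e-05, edgeR with the block).

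Of 15 tested genes for surface proteins that mark fibroblasts more broadly, 2 fell and 0 rose, where 1.59% of all tested genes fell, and the median of the log2 fold changes was -0.0037. They were Fap, given above, and Cd248, which encodes endosialin, at 49.3 ± 22.2 CPM in YFP-positive and 68.0 ± 32.6 CPM in YFP-negative cells (adjusted p = 0.0445, edgeR with the block). Pdgfra had a log2 fold change of -0.0037 with the block (adjusted p = 0.993, edgeR). The list of subepithelial fibroblast genes, 14 of them tested, ran the other way, with 6 that rose, 0 that fell and 0.28 as the median of the log2 fold changes. Of all tested genes, 0.696% rose. Whether these lists differed from each other or from the 9 genes was not tested.

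**Figure D4:**
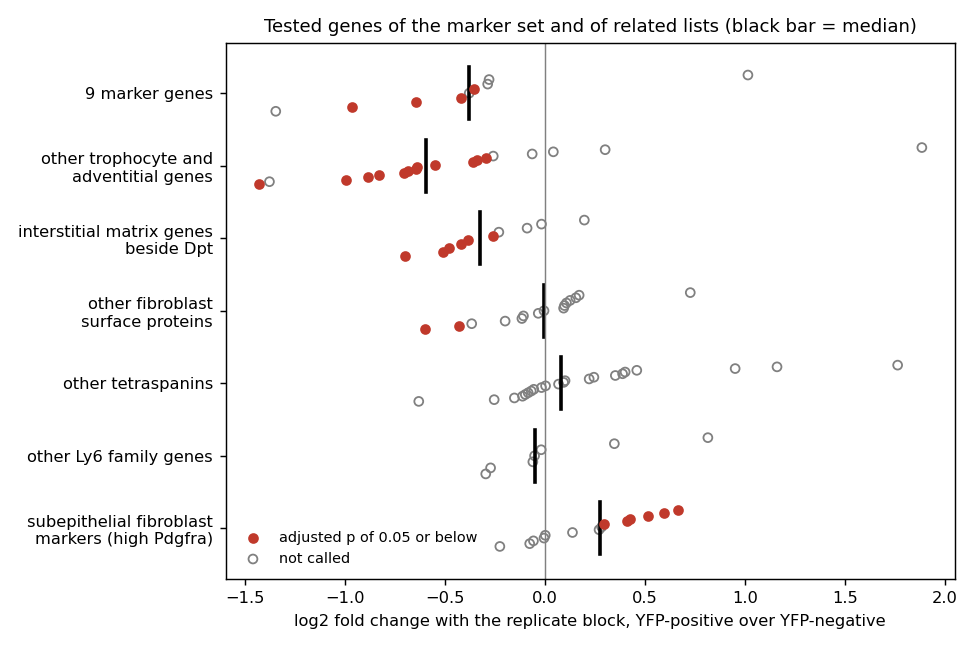
Log2 fold change with the replicate block (horizontal axis; negative is lower in YFP-positive cells) of each tested gene of the 9 markers and of 6 related lists; red points passed an adjusted p of 0.05, and black bars are medians. Red points lie left of 0 for the markers and for the adventitial, matrix and fibroblast surface protein lists. They lie right of 0 for the subepithelial list.

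Markers of other cell types moved with the fractions in part. The summed level of 10 smooth muscle genes was higher on the YFP-positive side in 4 of 4 pairs, at 878 to 1769 CPM in YFP-positive and 774 to 1301 CPM in YFP-negative libraries. Of these 10, 3 rose and 0 fell, where 0.696% of all tested genes rose and 1.59% fell. The median of their log2 fold changes was 0.27 with the block. The pericyte genes moved both ways: of 8 tested, Rgs5 fell, Cspg4 rose and the median of the log2 fold changes was 0.12. The sum of all 10 pericyte genes was 1439 to 1790.4 CPM in YFP-positive and 1689.7 to 2009 CPM in YFP-negative libraries, and was lower in 4 of 4 pairs. Most of that sum was Rgs5, at 886 ± 143 CPM in YFP-positive and 1140.5 ± 196 CPM in YFP-negative cells. The sum of 8 pan-leukocyte genes was higher in 3 of 4 pairs, at 15.3 to 52.8 CPM in YFP-positive and 7.55 to 27.2 CPM in YFP-negative libraries. Of these 8, 0 rose and 0 fell, and the median of the log2 fold changes was 0.93 with the block. Enteric glia genes summed to 253 to 336 CPM in YFP-positive and 253 to 362 CPM in YFP-negative libraries and were lower in 3 of 4 pairs. Of 7 tested glia genes, 1 fell and 0 rose, and 3 were lower in 4 of 4 pairs. The median of their log2 fold changes was -1.40 with the block. None of the markers in these 4 lists was at 0 counts in all libraries. The mitochondrial share of counts was 7.71% to 9.43% in YFP-positive and 8.07% to 12.4% in YFP-negative libraries. The part of any of these in the fall of Cd81, Cd34, Dpt and Clec3b was not tested. With mitochondrial genes left out before scaling, the same number of members, 4, was called lower. That setting leaves the counts of all other genes as they were, so it does not test this part.

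The genes whose 4 within-pair ratios lay nearest to the median profile of the 9 markers, which was -0.60, -0.52, -0.41 and -0.67, were sought among 6582 other genes with a mean of at least 20 CPM. They were Rcan1, an inhibitor of calcineurin, Enpp5, of the ectonucleotide pyrophosphatase family, Il33, an alarmin cytokine of stromal cells, Fap, and Aebp1, a secreted collagen-binding protein. Their root mean square distances from the profile were 0.0581, 0.0703, 0.0789, 0.0924 and 0.0985 on the log2 scale over 4 pairs. All 5 were lower in 4 of 4 pairs, which their choice by this profile fixes.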

How the data were processed

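RNA from sorted cells was made into libraries with a low-input stranded total RNA kit from Takara, per the labels' protocols. The submitters' processing notes name GRCm38, cutadapt 3.4, the aligner STAR 2.7.3a, the counter featureCounts 2.0.1, and DESeq2; the sources used here give no settings, annotation release or strand setting. Per sample, the deposited table holds raw counts of each gene, per the file headers. Its normalised values, a score, are counts divided by size factors and rounded by the authors; counts over DESeq2 size factors computed here differed from them by at most 0.500. It also holds the authors' log2 fold changes and p-values. DESeq2 with the replicate number as a term differed from these by at most 5.0e-04 (log2 fold change) and 5.1e-07 (p) over 29762 genes.

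Tests used the counts and edgeR 4.0.16 in R 4.3.3: filterByExpr, TMM scaling and a robust two-sided quasi-likelihood test of the group, with Benjamini-Hochberg adjustment over 15945 genes; the fit was tested on simulated data. The replicate number as a block was fitted as an alternative. Groups and numbers came from the sample titles. The labels do not say that equal numbers share a mouse, or that libraries are separate animals, so p-values measure the spread between these samples, which may be technical. Correlations of deviations from group means were 0.233, 0.487, 0.376 and 0.376 within numbers and at most 0.0456 between them, and the pairing was taken from these data. Intervals are 95% and come from the quasi-likelihood statistic. Log2 CPM for ratios used a prior count of 2. No 2 libraries of a group were alike within counting noise (chi-square over degrees of freedom at least 56.4). Coordinates and exon lengths are from GENCODE M21 on GRCm38, where 53620 of 53801 identifiers had an entry.

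Members, lists and settings were chosen with earlier results of these data known. Named were all 9 members, up to 3 called genes with the lowest adjusted p in each related list, genes that bear on how a member is read, and the 5 genes nearest to the members' median profile. Cd9, Cd63, Cd82, Ptgfrn, Igsf8, Gpx3, Col15a1, Ly6e, Fn1, Il7r and Rora, which were not called, were named after their values were seen. Alternatives were DESeq2 1.42.0, limma 3.58.1 with voom and quality weights, other scalings and filters, libraries left out, mitochondrial genes left out, and combinations with the block.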

Additional observations from a re-analysis of the deposited data

Results flagged for a closer look

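Within groups of 4 libraries, 5 values of the marker genes stood far from the other 3 by Dixon's ratio, of 18 groups examined; chance flags about 1 in 20. Ly6a was at 157.6 CPM in YFP-positive replicate 3, against 54.2 to 59.7 CPM in the other YFP-positive libraries, and at 170.2 CPM in YFP-negative replicate 3, against 66.5 to 84.1 CPM in the other YFP-negative libraries. Ly6c1 was at 21.4 CPM in YFP-positive replicate 3, against 5.62 to 8.09 CPM in the other YFP-positive libraries. Pi16 was at 8.68 CPM in YFP-positive replicate 1, against 2.57 to 2.97 CPM in the others, and Thy1 was at 5.44 CPM in the same library, against 1.54 to 1.96 CPM in the others.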

How the results depend on the processing

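The replicate block decided the calls: it took the members called lower to 4, against 0 without it, and the genes called lower and higher to 253 and 111, against 0 and 0. The pairing rests on correlations in the data and on the deposited comparison, not on a label. Without the block, 0 members were called in any of 15 other settings, and leaving out single libraries gave medians of the 9 log2 fold changes of -0.61 to -0.34. The sign turned for 4 members: single left-out libraries gave -0.61 to 0.0096 for Clec3b (highest without YFP-positive replicate 3), -1.12 to 0.13 for Thy1 (without YFP-negative replicate 1), and -0.76 to 0.17 for Ly6a and -0.85 to 0.27 for Ly6c1 (both without YFP-negative replicate 3); the cause was not tested. With the block, the 12 other settings called 3 to 6 members lower and 0 higher, and none turned a sign, although Dpp4 ran from 0.25 to 2.10 and Thy1 from -0.74 to -0.012. Cd81, Cd34 and Dpt were called in 12 of 12, with adjusted p up to 0.00485, 0.00732 and 0.0438, Clec3b in 8, Pi16 in 4 and Ly6a in 1, the filter that kept any count (adjusted p = 0.0427; edgeR, limma and DESeq2). Dpp4 was tested in 10 of them, since the stricter filter and the one without replicate 4 removed it. Over these settings the genes called in all ran from 119 to 420 lower and from 38 to 253 higher, with 153 lower and 212 higher for library sizes alone. At 1 CPM the smallest library held 11.7 counts, which limits Dpp4 and Thy1. Without both libraries of replicate 2 and without the block, 0 members were called and the median was -0.49. DESeq2 on every gene with a count and this last setting were added after seeing the data.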

Other observations

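The genes beside the members on the chromosome were looked up within 100 kb on GRCm38, a choice made after the values were seen. Next to the 4 genes that fell, Cd81 had 3 tested neighbours, Cd34 had 3, Clec3b had 2 and Dpt had 1, and 0 of these 9 were called with the block (edgeR). Since 1.59% of all tested genes fell and 0.696% rose, 0 of 9 says little. Among the 9, R74862, Gm16897 and Gm32569 are the opposite-strand genes with few counts that overlap Cd81, Cd34 and Dpt. The tested neighbours of Cd81 were R74862, Tssc4 and Kcnq1. Cd34 had Cd46, Gm16897 and A330023F24Rik beside it. Of the 2 tested neighbours of Dpp4, Slc4a10 and Fap, Fap was the one called, and it was lower in 4 of 4 pairs while Dpp4 was higher in 3 of 4.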
